A study of Homo sapiens with 6 samples.

Results

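The CCN genes and ANKRD1 were followed in HEK293A cells given 20 nM VT01454 for 2 h, a small molecule given only as a code name (n = 3 libraries), and in the same cells given the vehicle DMSO for 2 h (n = 3 libraries). HEK293A is a flat, firmly attached subline of HEK293 human embryonic kidney cells, and both groups come from that single line, with no further genotype named in the labels. Genes were taken by symbol: the 6 members of the CCN family, CCN1 to CCN6, and ANKRD1, 7 of the 60676 gene IDs counted by RNA sequencing. A set of 5 of the 7 (CCN1, CCN2, CCN3, CCN6 and ANKRD1) had enough counts to be tested, and CCN4 and CCN5 did not.

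CCN proteins are secreted, cysteine-rich matricellular proteins that bind integrins, proteoglycans and growth factors at the cell surface and in the matrix. ANKRD1 encodes a nuclear and sarcomeric ankyrin repeat protein first studied in heart muscle. CCN1, CCN2 and ANKRD1 are the transcripts most often used to read out YAP and TAZ, co-activators that bind TEAD transcription factors at DNA and are held in the cytoplasm when the Hippo kinases LATS1 and LATS2 phosphorylate them. The series is titled as work on phosphoinositol transfer proteins and phosphoinositides in Hippo signalling, so the comparison asks how these readouts stood after a short exposure to the compound.

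The promoters are shown first because TEAD factors recognise the core GGAATG. The RefSeq promoter table (build GRCh38.p14) matched 3 of the 7 members, and the promoters of CCN1, CCN3, CCN4 and CCN5 are not analysed here. The 250 bases before each RefSeq start site are printed 5′ to 3′ on the strand of the gene, with every GGAATG in capitals. The windows are chr6:131951373-131951622 (minus strand) for CCN2, chr10:90921088-90921337 (minus strand) for ANKRD1 and chr6:112053854-112054103 (plus strand) for CCN6. The gene starts in GENCODE release 29 lie inside all 3 windows, at 131951373 for CCN2 (the last base of its window), 90921276 for ANKRD1 and 112054072 for CCN6.
CCN2: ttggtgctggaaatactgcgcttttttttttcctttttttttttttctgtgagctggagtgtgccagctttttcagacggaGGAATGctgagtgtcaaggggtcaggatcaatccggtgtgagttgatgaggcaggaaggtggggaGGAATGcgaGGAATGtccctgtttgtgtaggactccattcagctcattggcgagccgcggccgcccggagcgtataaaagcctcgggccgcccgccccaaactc
ANKRD1: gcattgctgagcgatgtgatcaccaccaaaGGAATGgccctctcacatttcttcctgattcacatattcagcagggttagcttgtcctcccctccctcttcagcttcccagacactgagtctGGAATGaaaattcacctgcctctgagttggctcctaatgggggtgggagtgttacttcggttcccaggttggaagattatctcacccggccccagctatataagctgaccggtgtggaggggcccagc
CCN6: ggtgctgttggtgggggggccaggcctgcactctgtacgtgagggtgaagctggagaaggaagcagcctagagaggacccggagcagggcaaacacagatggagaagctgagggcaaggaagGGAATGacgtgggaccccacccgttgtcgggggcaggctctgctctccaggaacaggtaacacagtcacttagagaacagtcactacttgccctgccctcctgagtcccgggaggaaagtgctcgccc

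CCN2 held 3 copies of GGAATG, ANKRD1 held 2 and CCN6 held 1, all on the strand of the gene when both strands were searched. Of 35116 RefSeq promoter windows of the same length, 11.9% held at least 1 copy, 0.94% at least 2 and 0.0826% (29 windows) at least 3. In CCN2 the first bases of the 3 copies lay at -169, -104 and -95 from the start site, where -1 is the base just before it, so the nearer pair begins 9 bases apart. In ANKRD1 they lay at -220 and -128, and in CCN6 at -128. By the GENCODE start of ANKRD1, its copy at -128 lies downstream of the start and its copy at -220 upstream. These are matches of letters and not sites shown to be bound.

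Other motifs were sparse in the same windows. The TATA element TATAAA was found once in CCN2, at -32, and in 10.7% of all windows. The AP-1 motif TGANTCA was found once in ANKRD1, at -195, and in 6.57% of all windows. The SMAD-type motif CAGAC was found once in CCN2, at -177, and in 38% of all windows. In ANKRD1 it was found at -142 and, on the opposite strand, at -132, where it shares 1 base with the GGAATG at -128. The CArG box of serum response factor (SRF), held by 1.16% of windows, was not matched in any of the 3.

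**Figure D1:**
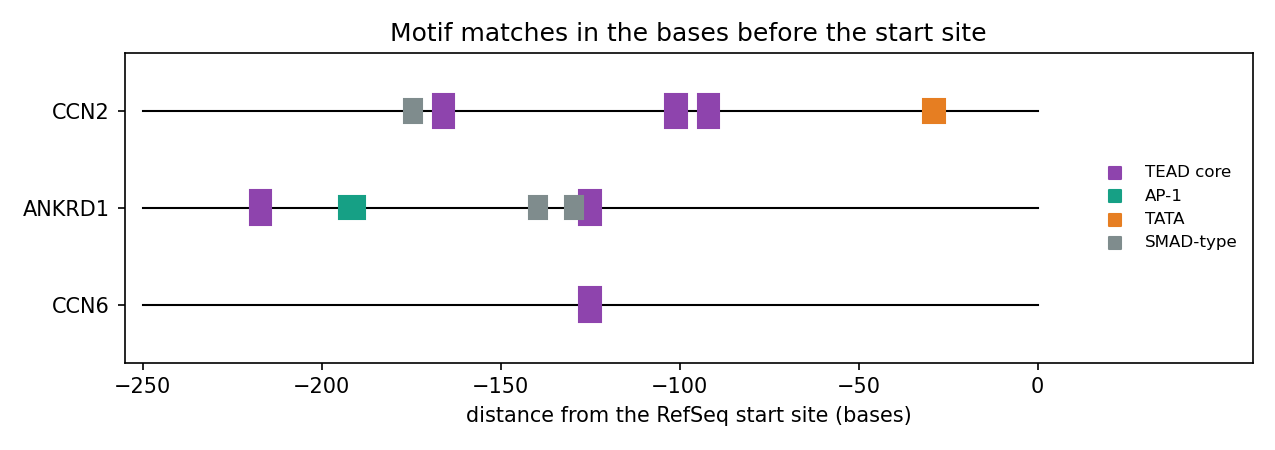
Motif matches in the 250 bases before the RefSeq start site of CCN2, ANKRD1 and CCN6; the horizontal axis is the distance from the start site in bases, and each box is 1 match on either strand. The TEAD core GGAATG occurs 3 times in CCN2, 2 times in ANKRD1 and 1 time in CCN6.

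Total counts were 24646466 to 28880374 in the compound libraries and 19126039 to 26879796 in the vehicle libraries, so 1 count was worth 0.0351 to 0.0409 CPM in the compound libraries and 0.0369 to 0.0522 CPM in the vehicle libraries. CPM are counts per 1000000 counted reads after TMM scaling, which evens out differences in library composition. The compound libraries were close to each other by chi-square per degree of freedom (2.04 to 2.8 between pairs). The vehicle libraries were further apart, with values from 7.86 up to 19.9. A compound library set against a vehicle library gave 7.62 to 17.9. By this measure, vehicle libraries differed among themselves about as much as they differed from compound libraries. The largest value, 19.9, was for vehicle libraries 2 and 3. Of 15577 genes tested with edgeR's quasi-likelihood F-test, 294 had a Benjamini-Hochberg adjusted p under 0.05, which is 1.89%, with 96 lower (0.616%) and 198 higher (1.27%). An unadjusted p below 0.05 was found for 2239 genes, or 14.4%. These counts depended on single libraries: without vehicle library 3 they were 636 lower and 1170 higher, without vehicle library 1 they were 20 and 73, without vehicle library 2 they were 159 and 255, and without a compound library 21 to 43 and 85 to 93. Separate cultures are not stated in the labels, and p-values therefore rest on the spread between these libraries, which may be technical.

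The cells carried part of the pattern of markers that the label embryonic kidney would lead one to look for. Of 10 embryonic kidney markers 7 were abundant enough to test: the transcription factor gene SIX2 averaged 53.3 CPM with the compound and 51.8 CPM with vehicle. PAX2 averaged 0.420 CPM with the compound and 0.518 CPM with vehicle, and PAX8 and LHX1 averaged below 0.5 CPM in both groups. The neurofilament gene NEFL, high in HEK293 derivatives, averaged 682 CPM with the compound and 676 CPM with vehicle. The other neuronal filament markers were low. NEFM averaged 2.56 CPM with the compound and 3.68 CPM with vehicle, NEFH 0.428 and 0.216 CPM, and INA 0.324 and 0.523 CPM. The 13 heart and skeletal muscle markers, listed because ANKRD1 is a heart muscle gene, summed to 6.03 to 6.46 CPM in the compound libraries and 6.16 to 7.15 CPM in the vehicle libraries. ACTN2 made up most of that (5.75 CPM with the compound and 5.78 CPM with vehicle), and MYH6 and MYL7 were at 0 in every library. Fibroblast and endothelial markers, which would mark cells rich in CCN transcripts, summed to 28.95 to 40.8 CPM with the compound and 32.04 to 46.4 CPM with vehicle, ranges that overlap. The leukocyte markers PTPRC, CD3E and CD68 were at 0 in every library. In edgeR, DESeq2 and limma-voom no marker of the 5 cell type lists changed. An unadjusted p below 0.05 in edgeR was found for 4 of the 19 tested (3 kidney markers and 1 fibroblast or endothelial marker), where 14.4% of all tested genes had one. Under other settings 2 markers passed. The kidney marker SALL1 stood at 0.36 on the log2 scale (adjusted p = 0.117, edgeR), and passed without a count filter (adjusted p = 0.0242) and without vehicle library 3 (0.0174). PDGFRA, a fibroblast receptor gene, averaged 1.06 CPM with the compound and 1.91 CPM with vehicle (log2 fold change -0.85, adjusted p = 0.153, edgeR), and passed without vehicle library 3 (-0.96, adjusted p = 0.0485). Among all 15890 genes tested without vehicle library 3, 1170 were higher and 636 lower. The part of these markers in the results on CCN2, ANKRD1 and CCN1 was not tested.

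CCN2, ANKRD1 and CCN1 fell, 3 of the 5 tested members, where 0.616% of all tested genes fell, and CCN2 fell the most. CCN2 encodes the protein also called CTGF, which promotes matrix production and adhesion, and lies on chromosome 6 from 131948176 to 131951373 (hg38, minus strand) with 5 merged exon blocks in GENCODE release 29. CCN2 counts were 2157, 1858 and 1833 in the compound libraries, against 3382, 3319 and 4407 in the vehicle libraries. In CPM these were 75.7, 74.6 and 74.9 with the compound, against 159.5, 173 and 163 with vehicle. Every compound library lay far below every vehicle library; 9.84% of all tested genes were lower without overlap.

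CCN2 averaged 75.1 ± 0.549 CPM with the compound and 165 ± 7.15 CPM with vehicle (SD, n = 3 each), so it was 2.199-fold lower (log2 fold change -1.14, SE 0.06, adjusted p = 4.47e-07, edgeR). Of the 96 genes that fell, 7 fell further than CCN2 on the log2 scale, and 2 of all tested genes had a smaller p. The compound libraries spread by 0.731% of their mean, less than the 2.26% that counting alone would give at this depth, and the vehicle libraries by 4.33% against 1.64%. The antisense transcript AL133346.1 shares 195 exonic bases with CCN2 and had 0 to 2 counts in every library; the strand setting of the counting is not given, so reads of both in those bases cannot be told apart.

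ANKRD1 came next. It lies on chromosome 10 from 90912096 to 90921276 (minus strand) with 9 merged exon blocks, and had 1489, 1184 and 1114 counts in the compound libraries, against 1800, 1770 and 2311 counts in the vehicle libraries. In CPM these were 52.3, 47.6 and 45.5 with the compound, against 84.9, 92.4 and 85.3 with vehicle. The groups did not overlap, and compound library 1 was the highest of its group.

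ANKRD1 averaged 48.4 ± 3.45 CPM with the compound and 87.5 ± 4.19 CPM with vehicle (SD, n = 3 each), 1.80-fold lower (log2 fold change -0.85 ± 0.07, where ± on the log2 scale is the SE here and for every gene after it, adjusted p = 2.25e-05, edgeR). Its spread was 7.11% of the mean in the compound libraries and 4.79% in the vehicle libraries, where counting alone would give 2.81% and 2.26%. No other gene of GENCODE release 29 overlaps ANKRD1 or CCN1.

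CCN1 fell the least of the 3 classical readouts. CCN1 encodes the protein also called CYR61, which supports integrin-dependent adhesion and migration and which growth factors also induce as an immediate early gene. It lies on chromosome 1 from 85580761 to 85583962 (plus strand) with 5 merged exon blocks. CCN1 had 3966, 3394 and 3468 counts in the compound libraries, against 4211, 4139 and 5323 counts in the vehicle libraries. In CPM these were 139, 136 and 142 with the compound, against 199, 216 and 196 with vehicle. The lowest vehicle library was well above the highest compound library.

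CCN1 averaged 139 ± 2.71 CPM with the compound and 204 ± 10.7 CPM with vehicle (SD, n = 3 each), 1.46-fold lower (log2 fold change -0.55 ± 0.06, adjusted p = 1.99e-04, edgeR). Among the 96 genes that fell it ranked at 36 by size, against 12 for ANKRD1 and 8 for CCN2. Leaving out any single library kept all 3 calls, with adjusted p up to 0.0071 for CCN1, 1.28e-04 for CCN2 and 0.00197 for ANKRD1. In bulk RNA, fewer cells with a transcript and less of it per cell cannot be told apart.

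**Figure D2:**
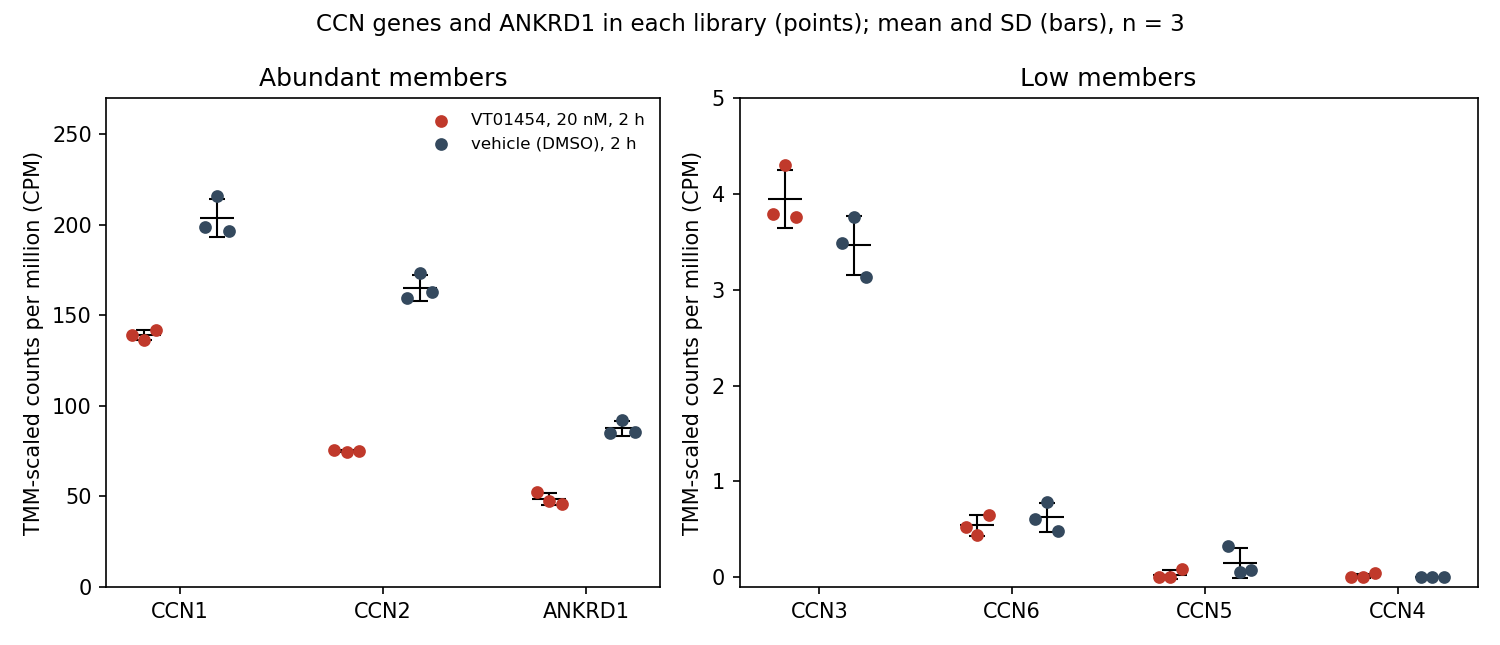
Level of each member in TMM-scaled CPM, with points for the 3 libraries of each group and bars for mean and SD; abundant members are on the left and low members on the right, on separate scales. CCN1, CCN2 and ANKRD1 do not overlap between groups, CCN3 is separated by a hair (3.76 CPM on both sides), and CCN6, CCN5 and CCN4 overlap.

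The 3 estimated falls differed in size, which shows in the ratios of counts within a library, where sequencing depth cancels. The ratio of CCN2 to CCN1 was 0.544, 0.547 and 0.529 in the compound libraries, against 0.803, 0.802 and 0.828 in the vehicle libraries. The ratio of ANKRD1 to CCN1 was 0.375, 0.349 and 0.321 with the compound, against 0.427, 0.428 and 0.434 with vehicle. The ratio of CCN2 to ANKRD1 was 1.45, 1.57 and 1.65 with the compound, against 1.88, 1.88 and 1.91 with vehicle. All 3 ratios were lower in each compound library than in any vehicle library.

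On the log2 scale the shifts were -0.59 ± 0.02 for CCN2 to CCN1, -0.31 ± 0.07 for ANKRD1 to CCN1 and -0.28 ± 0.05 for CCN2 to ANKRD1 (SE). The exact two-sided permutation test gave p = 0.1 for each of the 3 pairs, and 0.1 after Benjamini-Hochberg adjustment over them. That is the smallest p that 3 against 3 libraries allow. Because it could not reach 0.05, the test does not decide whether the falls differ. The ratios share members and libraries, so they are not independent. Vehicle libraries held the ratios tightly, with an SD of 0.0147 around 0.811 for CCN2 to CCN1, although these libraries differed in many other genes.

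**Figure D3:**
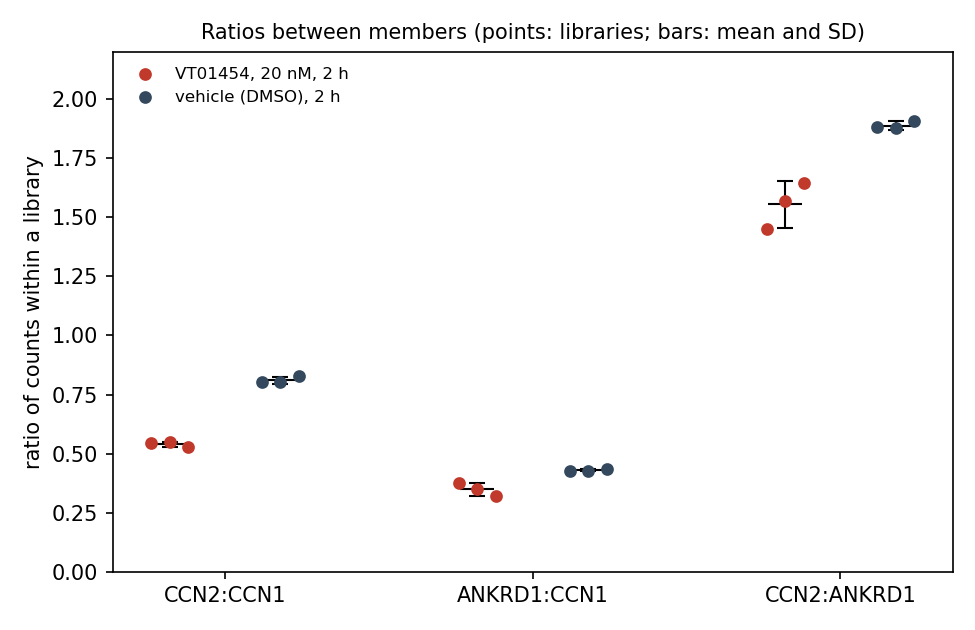
Ratios of raw counts between members within each library (points), with mean and SD of each group of 3 (bars). The ratio of CCN2 to CCN1 sits at 0.529 to 0.547 in compound libraries and at 0.802 to 0.828 in vehicle libraries.

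The order of the members by level was the same in both groups. Per kilobase of exon in GENCODE release 29, levels with the compound were 56.7 ± 1.10 CPM per kb for CCN1, 32.1 ± 0.235 for CCN2, 24.5 ± 1.74 for ANKRD1, 1.48 ± 0.113 for CCN3 and 0.169 ± 0.0334 for CCN6 (SD, n = 3). With vehicle they were 83.0 ± 4.36 CPM per kb for CCN1, 70.6 ± 3.06 for CCN2, 44.2 ± 2.12 for ANKRD1, 1.295 ± 0.116 for CCN3 and 0.195 ± 0.0474 for CCN6. Every pair of neighbours in this order was separated by more than the sum of their SDs. In vehicle, CCN1 stood above 97.0% of tested genes per kilobase, CCN2 above 96.4% and ANKRD1 above 93.4%, whereas CCN3 stood above 30.1% and CCN6 above 7.08%.

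The remaining CCN genes were scarce. CCN3, known as NOV, encodes a CCN protein with growth-restraining roles in several cell types. It lies on chromosome 8, and it had 108, 107 and 92 counts in the compound libraries, against 74, 72 and 85 in the vehicle libraries. In CPM these were 3.79, 4.298 and 3.76 with the compound, against 3.49, 3.76 and 3.14 with vehicle, so the groups met without overlapping. For comparison, 11.3% of all tested genes were higher without overlap. The log2 fold change of 0.19 ± 0.16 did not pass (adjusted p = 0.604, edgeR), and 2 standard errors on either side span -0.12 to 0.51.

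CCN6, also called WISP3 and tied in humans to a childhood joint disease, lies on chromosome 6 from 112054072 to 112070969 (plus strand). It had 15, 11 and 16 counts in the compound libraries, against 13, 15 and 13 in the vehicle libraries. Its level of 0.541 ± 0.107 CPM with the compound and 0.625 ± 0.152 CPM with vehicle overlapped between groups (log2 fold change -0.19 ± 0.35, adjusted p = 0.840, edgeR). At this depth, 2 standard errors on either side of the estimate span -0.89 to 0.52 on the log2 scale. That range includes 0, and neither a fall nor a rise within it can be set aside. CCN6 shares 193 exonic bases with TUBE1, a tubulin gene on the other strand with 394 to 537 counts per library, and reads of both in those bases cannot be told apart.

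CCN5, also called WISP2 and lacking the C-terminal module of the other CCN proteins, lies on chromosome 20 from 44714844 to 44728509 (plus strand). It had 0, 0 and 2 counts in the compound libraries, against 7, 1 and 2 in the vehicle libraries. Summed counts were equal to 0.0257 CPM with the compound (exact 95% Poisson interval 0.00311 to 0.0928) and 0.148 CPM with vehicle (0.0711 to 0.273), intervals that overlap and cover counting error only. Vehicle library 1 alone held 7 of the 10 vehicle counts. The antisense gene KCNK15-AS1, whose span covers all of CCN5, had 7 to 18 counts per library.

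CCN4, also called WISP1 and a known Wnt target, had a single count, in compound library 3, and 0 counts in the vehicle libraries. Summed counts were equal to 0.0128 CPM with the compound (exact 95% Poisson interval 3.25e-04 to 0.0716) and 0 CPM with vehicle (up to 0.0547). No fold change was computed for CCN4 or CCN5.

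**Figure D4:**
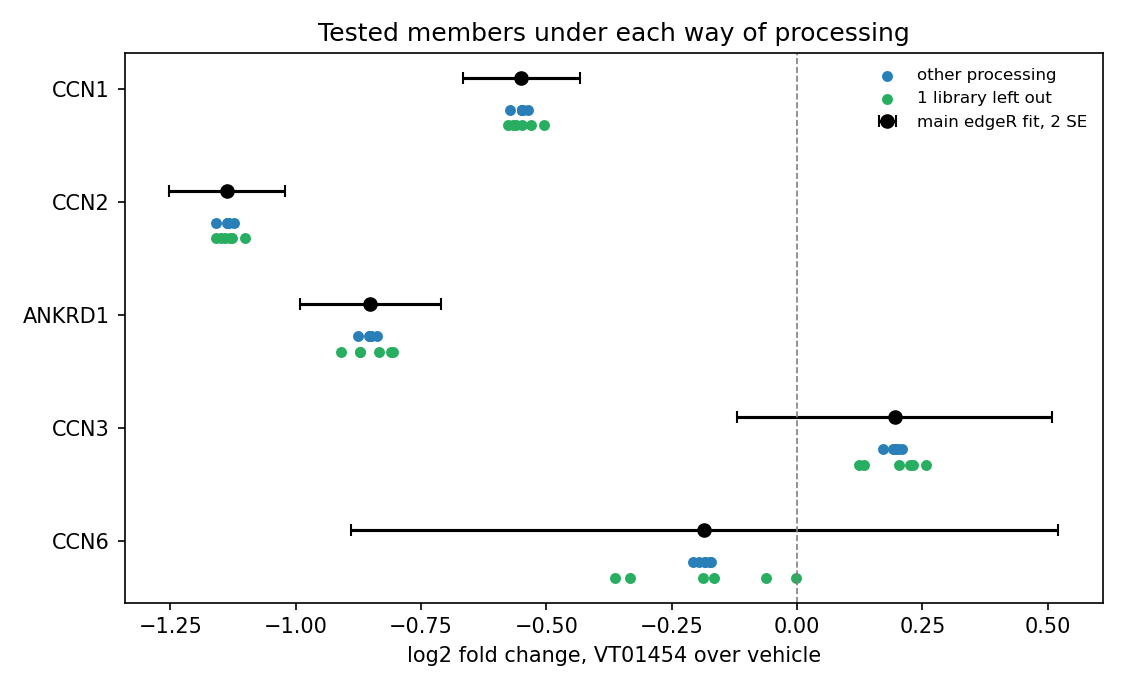
Log2 fold change of the 5 tested members, compound over vehicle: black points with bars of 2 SE are the edgeR fit to all libraries, blue points other ways of processing, green points fits with 1 library left out. CCN1, CCN2 and ANKRD1 stay below 0 under every setting run, CCN3 stays above 0, and CCN6 runs from -0.36 to -0.003 where it had a value.

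The genes nearest to the 3 readouts by pattern were few and mixed. Likeness was the root mean square difference of log2 CPM, centred on the mean of the 6 libraries, over 14603 tested genes with a proper symbol and no 0 count. Because the group difference makes up most of this pattern, genes that fell by the same amount come out near, and all values share the same libraries. AJUBA, which encodes a LIM domain scaffold that binds LATS kinases, lay nearest to CCN1 at 0.0516, ahead of the non-coding SNHG19 (0.0525) and the Golgi GTPase gene ARFRP1 (0.0559). EIF5, a translation initiation factor gene, lay nearest to CCN2 at 0.0857, ahead of ANKRD1 (0.151) and the non-coding LNCRNA-IUR (0.161). ACP6, a lysophosphatidic acid phosphatase gene, lay nearest to ANKRD1 at 0.0874, ahead of the aldehyde dehydrogenase gene ALDH3B1 (0.0923) and C17orf113 (0.0958). CCN1 lay 0.294 from CCN2 and 0.166 from ANKRD1.

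Of these neighbours AJUBA averaged 54.1 CPM with the compound and 78.7 CPM with vehicle (log2 fold change -0.54 ± 0.06, adjusted p = 4.63e-04, edgeR). EIF5 averaged 204 CPM with the compound and 418 CPM with vehicle (-1.04 ± 0.06), and ACP6 14.9 CPM and 24.9 CPM (-0.74 ± 0.08); both fell (adjusted p = 9.54e-07 and 3.74e-04). SNHG19 and ARFRP1 also passed (adjusted p = 0.0448 and 0.00803), but SNHG19 did not in limma-voom (adjusted p = 0.0551) or without any single library but vehicle library 3 (up to 0.245), nor did ARFRP1 without any one compound library or vehicle library 1 (up to 0.0842). LNCRNA-IUR, ALDH3B1 and C17orf113 did not pass (adjusted p = 0.222, 0.126 and 0.0855), although C17orf113 passed without vehicle library 3 (adjusted p = 0.0253).

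Most other reported YAP and TAZ targets did not follow the 3 readouts past the test. Of 28 tested genes on that list 3 fell and 25 did not pass, where 0.616% of all tested genes fell. The median log2 fold change of the list was 0.0028, against -0.0073 over all tested genes, and 14 of the 28 lay below 0. AMOTL2, an angiomotin family scaffold gene, averaged 37.4 ± 0.860 CPM with the compound and 116 ± 7.15 CPM with vehicle (-1.64 ± 0.07, adjusted p = 3.97e-08, edgeR), a larger fall than that of CCN2. The other two were AJUBA and LATS2, the Hippo kinase gene (-0.45 ± 0.09, adjusted p = 0.0255). LATS2 did not pass without any one compound library or vehicle library 1 (adjusted p up to 0.189). Without vehicle library 3, 5 list members were higher and 4 lower, where 1170 of all 15890 genes tested were higher and 636 lower.

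CCND1, the cyclin D1 gene, came next by p with a log2 fold change of 0.15 ± 0.06 (adjusted p = 0.238, edgeR).

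Most genes of the YAP, TAZ and TEAD machinery did not pass. Of 17 tested genes for YAP, TAZ, TEAD factors, their VGLL competitors and the core Hippo kinases, LATS2 fell and 16 did not pass, with a list median of 0.10. TEAD4, a TEAD factor gene, averaged 57.8 CPM with the compound and 69.4 CPM with vehicle (-0.26 ± 0.07, adjusted p = 0.0834), and WWTR1, the TAZ gene, 86.6 CPM and 72.2 CPM (0.26 ± 0.08, adjusted p = 0.120). TEAD4 passed with DESeq2 (adjusted p = 0.0395) and without a count filter (0.0370), and WWTR1 without a count filter (0.0105). LATS1 stood at 0.19 ± 0.08 (adjusted p = 0.294). Without vehicle library 3, 6 of these genes were higher and 2 lower, TEAD4 and WWTR1 among those that passed (adjusted p = 0.00442 and 0.00143). At that setting 1170 of all 15890 genes tested were higher and 636 lower. The lower count dropped to 0 without any one compound library or vehicle library 1.

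Genes for the receptors of CCN proteins did not pass. Among 13 tested integrin, LRP, syndecan and other receptor genes none changed in edgeR, DESeq2 or limma-voom, and 3 had an unadjusted p below 0.05 in edgeR, where 14.4% of all tested genes did. The list median was 0.092. ITGB1, the integrin beta 1 gene and the most abundant of them, averaged 596 CPM with the compound and 559 CPM with vehicle (0.092 ± 0.05, adjusted p = 0.474). NOTCH1, whose product binds CCN3, stood at 0.25 ± 0.09 (adjusted p = 0.225), ITGAV, the alpha V integrin gene, at 0.19 ± 0.07 (0.228) and the Wnt co-receptor gene LRP6 at 0.19 ± 0.08 (0.277). NOTCH1 passed without a count filter (adjusted p = 0.00951), and ITGAV and LRP6 passed without vehicle library 3 (adjusted p = 0.00434 and 0.0330), which made 2 receptors higher there. Over all 15890 genes tested without vehicle library 3, 1170 were higher.

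Genes for the growth factors, matrix proteins and proteases that bind or cut CCN proteins gave the same count. None of 13 tested changed in edgeR, DESeq2 or limma-voom, and 2 had an unadjusted p below 0.05 in edgeR (14.4% over all tested genes), with a list median of 0.018. BMP4, a ligand that CCN2 binds, averaged 11.8 CPM with the compound and 15.2 CPM with vehicle (-0.36 ± 0.10, adjusted p = 0.0933), and VEGFA, another CCN2 ligand, stood at 0.20 ± 0.07 (adjusted p = 0.239). MMP1, the interstitial collagenase gene, was at 1.19, 0.0803 and 0.0409 CPM in the compound libraries, against 3.54, 6.42 and 1.33 CPM in the vehicle libraries. Its groups do not overlap, but the libraries of each group spread widely and it did not pass (-2.98 ± 1.15, adjusted p = 0.355). Without vehicle library 3, 2 genes were higher and 1, BMP4, was lower (adjusted p = 0.0243). Of all 15890 genes tested at that setting, 1170 were higher and 636 lower.

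The close relatives and partners of ANKRD1 were mostly too low to test. ANKRD2 and ANKRD23, the other muscle ankyrin repeat genes, were at or below 0.234 CPM on average in either group. Of 11 genes for relatives and sarcomeric or nuclear partners only 4 could be tested. FHL2, a LIM domain co-factor gene, averaged 51.0 CPM with the compound and 40.5 CPM with vehicle (0.33 ± 0.07, adjusted p = 0.0318, edgeR), a rise that did not pass without any one compound library or vehicle library 1 (adjusted p up to 0.195). TTN, the titin gene, stood at -0.12 ± 0.19 (adjusted p = 0.811) and YBX1, a nuclear partner gene, at -0.023 ± 0.07 (0.911). TTN stood at 0.11 without vehicle library 3, and YBX1 at 0.060 without vehicle library 2.

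CCN1 is itself induced by serum and growth factors, yet most immediate early genes moved the other way. Of 25 tested immediate early genes 20 rose, where 1.27% of all tested genes rose, and 5 did not pass; the list median was 0.90. EGR3, a zinc finger transcription factor gene, averaged 25.2 CPM with the compound and 0.920 CPM with vehicle (4.83 ± 0.19, adjusted p = 3.97e-08, edgeR). JUN, an AP-1 subunit gene, averaged 762 CPM with the compound and 401 CPM with vehicle (0.92 ± 0.06, adjusted p = 1.71e-06). IER2 and KLF6, a nuclear factor gene and a Kruppel-like factor gene, rose by 1.09 ± 0.07 and 0.90 ± 0.06 on the log2 scale (adjusted p = 2.56e-06 and 3.01e-06). The count of rises was 17 to 21 when 1 library was left out.

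SRF and MRTF targets are a group to which CCN1, CCN2 and ANKRD1 are also often assigned. The list used here also holds the SRF and MRTF genes themselves. Of its 19 tested genes 7 rose and 12 did not pass, and 4 of the 19 lay below 0. The list median was 0.26, and 1.27% of all tested genes rose. FHL2 is among the 7 and is also the 1 rise counted among the partners of ANKRD1. SRF itself averaged 194 CPM with the compound and 129 CPM with vehicle (0.59 ± 0.06, adjusted p = 1.95e-04, edgeR). LIMA1, an actin-bundling protein gene, rose by 0.53 ± 0.06 on the log2 scale, the tropomyosin gene TPM4 by 0.38 ± 0.05 and the actin gene ACTG1 by 0.38 ± 0.05 (adjusted p = 3.73e-04, 0.00124 and 0.00194). The count of rises was 4 without any one compound library or vehicle library 1, and 9 without vehicle library 2 or 3. Leaving out vehicle library 3 made 1170 of all 15890 genes tested higher.

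TGF-beta targets, a group that in many cells includes CCN2, rose in 5 of 13 tested cases and 8 did not pass, with a list median of 0.36; 1.27% of all tested genes rose. JUNB is among the 5 and is also 1 of the 20 immediate early genes that rose. JUNB rose most clearly (1.22 ± 0.10, adjusted p = 1.50e-05, edgeR), followed by the clock-linked repressor gene BHLHE40 (0.54 ± 0.07, adjusted p = 0.00169), PMEPA1, an inhibitor of SMAD signalling (0.60 ± 0.09, adjusted p = 0.00336), and TGIF1, a SMAD corepressor gene (0.47 ± 0.08, adjusted p = 0.00798). PMEPA1 did not pass without vehicle library 1 (adjusted p = 0.0681), nor TGIF1 without vehicle library 1 or compound library 1 or 2 (up to 0.0745). The count of rises was 2 without vehicle library 1, 3 without compound library 1 or 2, and 8 without vehicle library 3. In the fit without vehicle library 3, 1170 of all 15890 genes tested were higher.

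TGFBI, a secreted matrix protein gene, set vehicle library 3 apart from the others. It stood at 40.7, 47.9 and 38.9 CPM in the compound libraries, against 9.34, 12.1 and 41.8 CPM in the vehicle libraries. It did not pass (adjusted p = 0.569, edgeR). CCN2 did not follow it: its 163 CPM in vehicle library 3 lay between the values of the other vehicle libraries.

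**Figure D5:**
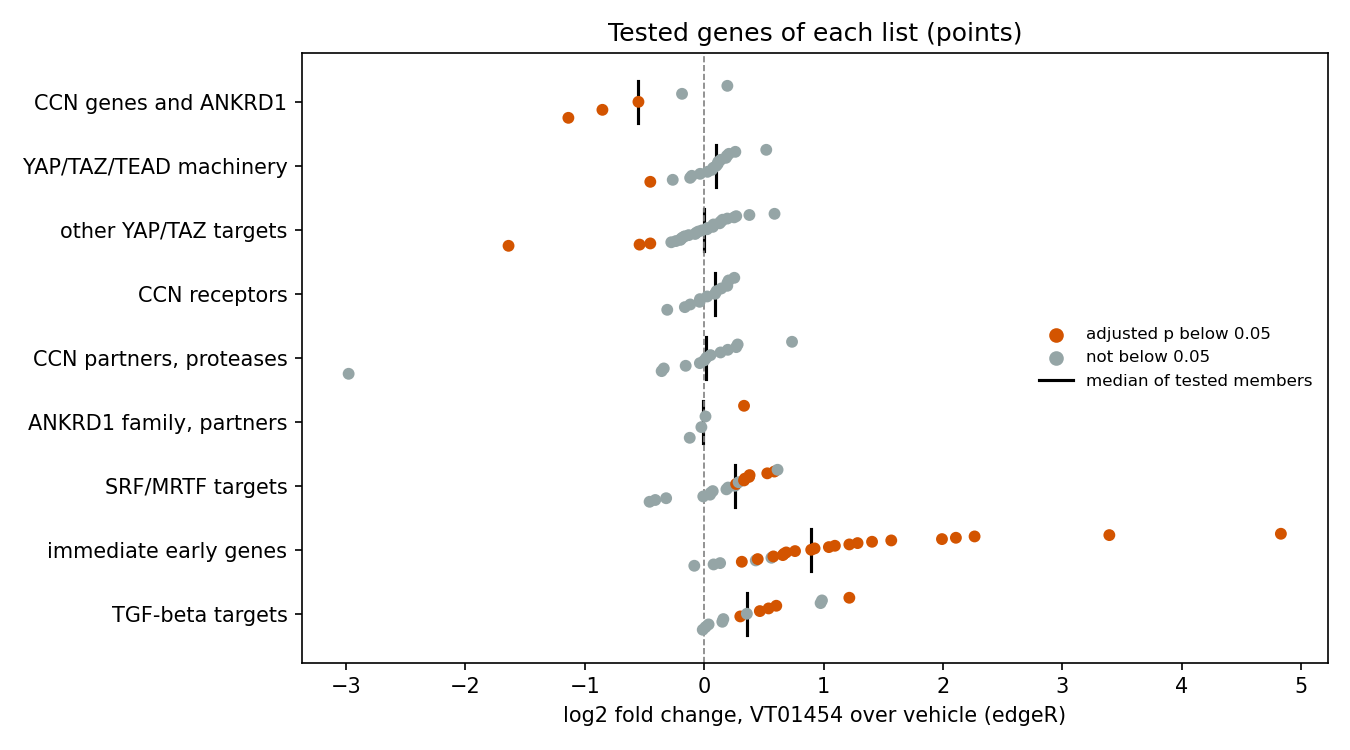
Log2 fold change of every tested gene of each list, compound over vehicle; orange points have an adjusted p below 0.05, grey points do not, and black bars are list medians. CCN1, CCN2 and ANKRD1 lie left of 0 while 20 of 25 immediate early genes are orange and right of 0.

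Most tested genes with a promoter window held no TEAD core in it, both among those that fell and among all. Of the 96 genes that fell 73 had a window, and CCN1 was not among them. Of 11223 tested genes with a RefSeq promoter window, 1453 held at least 1 GGAATG, and of these 15 fell (1.03%) and 22 rose (1.51%). Among the 9770 with no copy 58 fell (0.594%) and 140 rose (1.43%). Of 102 genes with at least 2 copies, CCN2, ANKRD1 and SYDE1 fell (2.94%) and EGR2 rose (0.98%). Of the 7 with at least 3, CCN2 and SYDE1 fell (28.6%). Over all 11223 genes with a window, 0.65% fell and 1.44% rose. CCN2 and ANKRD1 are members chosen with their falls known, so their part in these small counts follows from that choice. A gene with more than 1 window was counted by the window with the most copies. SYDE1, a gene with 3 copies (log2 fold change -0.43, adjusted p = 0.00355, edgeR), and EGR2, a zinc finger gene with 2 copies (2.11, adjusted p = 3.36e-04), were picked out after their values were seen. AMOTL2 and AJUBA each held 1 copy and LATS2 held 0, while NUAK2, a kinase gene with 2 copies, stood at -0.16 ± 0.19 (adjusted p = 0.736). No test of this relation was made, and more distant enhancers were not examined.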

How the data were processed

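The authors deposited raw read counts per Ensembl gene, 1 table of 60676 IDs per library, with no normalization. HISAT2 2.2.1, HTSeq 0.9.1 and the build hg38 are named in the submitters' processing notes. Not given in the sources used here: annotation release, strand setting and handling of multi-mapped reads. Per the labels' protocols, RNA came from RNeasy Plus columns and libraries from the NEBNext Ultra II kit.

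Symbols were matched to 60357 IDs, and GENCODE release 29 gave coordinates and exonic length for 58503. In edgeR 4.0.16 (R 4.3.3), genes were kept by filterByExpr (99.9% of counts), scaled by TMM and tested two-sided by the robust quasi-likelihood F-test, compound over vehicle, with Benjamini-Hochberg adjustment over all tested genes and a threshold of 0.05. SE is the log2 fold change over the square root of F. The steps were tested on simulated data. DESeq2 1.42.0, limma-voom (limma 3.58.1) and other alternatives are under the closing section.

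Members, gene lists and tests were chosen with earlier results of these data known. Named genes are the members, up to 4 genes of each list by smallest p, and the 3 nearest in pattern to CCN1, CCN2 and ANKRD1. Other names were chosen after their values were seen: ITGB1, TGFBI, SYDE1, EGR2, NUAK2, SIX2, PAX2, PAX8, LHX1, NEFH, MYH6, MYL7, PTPRC, CD3E, CD68, ANKRD2 and ANKRD23. Pattern likeness used log2 CPM with no offset and left out genes with a 0 count; an offset of 0.5 was tried first and dropped after its results were seen, since low genes matched through it. CCN6 fits the rule for CCN genes and was included. Intervals cover counting error only.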

Additional observations from a re-analysis of the deposited data

How the results depend on the processing

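CCN1, CCN2 and ANKRD1 kept their direction and passed under all 13 alternatives: DESeq2, limma-voom, the replicate block, scaling by DESeq2 size factors or by library size alone, a mean of at least 1 CPM or no count filter, and 6 fits without 1 library. Their log2 fold changes ran from -0.58 to -0.51, -1.16 to -1.10 and -0.91 to -0.81. CCN3 and CCN6 did not pass under any alternative that gave a p (0.12 to 0.26 and -0.36 to -0.003); CCN6 had no value at a mean of at least 1 CPM and no adjusted p in DESeq2. The 3 ratios kept their direction with 0.5 counts added and without any library. Counts of changed genes moved most: 508 higher and 205 lower without a count filter, 94 and 31 at an adjusted p below 0.01, and 73 to 1170 higher and 20 to 636 lower when 1 library was left out. No count filter gave 1 higher and 2 lower genes of the YAP, TAZ and TEAD machinery 1 higher CCN receptor and 1 higher kidney marker (SALL1), and DESeq2 gave 2 lower machinery genes.

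With 1 library left out, the counts higher ran from 0 to 6 for the machinery, 0 to 5 for other YAP and TAZ targets, 0 to 2 for CCN receptors, 0 to 2 for CCN partners and proteases, 0 to 1 for ANKRD1 relatives, 4 to 9 for SRF targets, 2 to 8 for TGF-beta targets and 0 to 1 for kidney markers. The counts lower ran from 0 to 2 for the machinery and from 0 to 1 for CCN partners, SRF targets, immediate early genes and fibroblast and endothelial markers. Values that changed sign, none of them called, were MYOM1 (-0.013 with library size alone, -0.25 to 0.56 without 1 library), NEFL (-0.012 with library size alone, -0.021 to 0.049 without 1 library), ACTN2 (0.0087 with no count filter, -0.028 to 0.036 without 1 library), and, without 1 library, TTN (-0.34 to 0.11), YBX1 (-0.12 to 0.060), NEFM (-1.08 to 0.23), INA (-1.16 to 0.12) and COL1A2 (-0.37 to 0.0037). The cause was not tested.

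The replicate numbers are not stated to pair libraries across the groups. Deviations of same-numbered libraries from their group means correlated at -0.072, 0.0011 and 0.0025 over 15577 genes. Differently numbered libraries gave -0.037 to 0.043. With 3 libraries per group, these values cannot show whether the numbers mark pairs. With the replicate block 232 genes were higher and 107 lower, and CCN1, CCN2 and ANKRD1 stood at -0.55, -1.14 and -0.85. Depth limits CCN4, CCN5 and CCN6, with at most 16 counts in any library.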
